A study of Mus musculus with 4 samples.

Results

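The cell cycle genes described here are 50 genes of DNA replication and mitosis, read in lung tumours of CD109+/+ and CD109-/- KP mice. The rule that chose them lists the genes by name, and the list was drawn up with earlier results of these data known. All 50 were found on the array among 23787 named genes, through the accession of each probe, and 49 of them had a probe bright enough to be tested, as had 16443 genes in all. The members fall into 16 replication genes, 6 S-phase cyclins and transcription factors, and 28 mitosis genes. None of the 49 passed limma's test, nor did any of the 16443 genes, the targeted gene Cd109 included (limma adjusted p = 0.299). The members' median difference was -0.12 on the log2 scale. In 12 members (24.5%) the genotypes did not overlap, against 38.6% of all genes. Within each genotype nearly all members were brighter on replicate 1 than on replicate 2. Of all genes 54.2% were in CD109+/+ and 47.5% in CD109-/- tumours. In CD109+/+ tumours the count depended on the scaling. Under the authors' processed values 34 of 49 members were brighter on replicate 1, against 4418 of all 16443 genes. The CD109-/- replicates, a male and a female, were different mice. Separate mice for the CD109+/+ replicates are not stated, so their gap may be technical. The technical part of the gap was not tested in either genotype.

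A dividing cell first licenses its replication origins, when Cdc6 and Cdt1 load the MCM helicase onto DNA. The helicase then joins with the GINS complex, while ribonucleotide reductase (Rrm1 and Rrm2), Tyms and Tk1 supply the nucleotides and Pcna clamps the polymerase to its template. Entry into S phase is driven by cyclin E and the E2F factors, and the later mitotic programme is switched on by Mybl2 and Foxm1. Mitosis itself uses cyclin B with Cdk1, the Aurora and Polo kinases, kinesin motors, the spindle checkpoint and the anaphase-promoting complex with its activator Cdc20. In lung adenocarcinoma, Mki67 and the genes moving with it are widely used as a readout of how many cells are cycling. In bulk tumour RNA, fewer cycling cells and less RNA per cycling cell cannot be told apart.

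Total RNA came from lung tumours taken 88 to 92 days after adenoviral Cre had been given into the trachea of KP mice of the C57BL/6J strain. KP mice are a lung adenocarcinoma model in which Cre starts the tumours, and every group shares that background; its alleles, and how the CD109 null allele was made, are not given in the sources used here. There were 2 CD109+/+ samples, both from females, and 2 CD109-/- samples, a male (replicate 1) and a female (replicate 2), each on its own single-colour Agilent array. Ages are not given. The CD109-/- samples differ in sex and so came from different mice, but separate mice for the CD109+/+ samples are not stated. The p-values therefore measure the spread between these samples only, which may be partly technical. All values are log2 of the processed signal relative to the array's 75th percentile. That percentile lay at 557 to 688 signal units, between 64.3% and 67.0% of the spots passed Feature Extraction's mark for well above background, and saturation was marked on 0 spots. Cd109, the targeted gene, stood at -3.70 and -4.66 in CD109+/+ tumours, against -7.98 and -7.87 with CD109 deleted, where it was not well above background, so the arrays followed their labels. Whether the Cd109 probe lies in the deleted part was not examined. Epithelial markers were present throughout, with all 13 of the alveolar type 2 and epithelial genes well above background on all 4 arrays.

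Promoter letter patterns, which played no part in choosing the members, were frequent among them but not shared by all. RefSeq promoter windows (GRCm38.p6, 250 bases before to 50 after a transcription start) were found for 41 of the 50. Letter patterns were searched on both strands. The first was the E2F core, counted wherever TTCCCGC stood, and likewise wherever the window held TTCGCGC, the third form being TTGCCGC while the remaining form was TTGGCGC. Next came the cell cycle homology region or CHR, which is read by the MuvB complex of late cell cycle genes and was counted as TTTGAA, or otherwise in its palindromic form TTCGAA. The last was the CCAAT box (CCAAT), the site of NF-Y. E2F cores can overlap each other on opposite strands, and a core can share letters with a CCAAT box, as in Ccnb1. A match is a description of letters and not a binding site.

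E2F cores were more frequent in the replication promoters and CHR letters in the mitosis promoters, as a description without a test. An E2F core stood in 8 of 13 replication promoters (61.5%) and in 3 of 24 mitosis promoters (12.5%), against 17.0% of the 12999 tested genes with a window. A CHR stood in 18 of 24 mitosis promoters (75%) and in 2 of 13 replication promoters (15.4%), against 17.2% of tested genes. In 16 of the 24 mitosis genes (66.7%) a CHR began within 50 bases of a start, which held for 4.53% of tested genes and for 0 of 13 replication genes. CCAAT boxes were frequent in both, in 9 of 13 and 20 of 24 promoters, against 42.3% of tested genes. The CHR and the CCAAT box occurred together in 17 of 24 mitosis promoters (70.8%), against 8.22%. Of the S-phase cyclins and factors with a window, Ccne1, E2f1 and Mybl2 held none of the patterns and E2f8 held all of them. Of all 41 members with a window, 8 (19.5%) held none of the patterns, against 40.8% of tested genes.

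The stretches below end at the base before the start and show the main patterns: 2 helicase subunit genes with E2F cores and 3 mitosis genes with CHR and CCAAT letters. The Cdk1 window also holds 2 E2F cores, beginning at -178 and -130 from the start, beyond the stretch printed. Capitals mark the matches, in either orientation. Mcm6 covers chr1:128359706-128359825 on the minus strand, Mcm5 chr8:75109329-75109508 on the plus strand, Cdc20 chr4:118437344-118437443 on the minus strand, Cdk1 chr10:69352913-69353012 on the minus strand and Top2a chr11:99024190-99024389 on the minus strand.
Mcm6: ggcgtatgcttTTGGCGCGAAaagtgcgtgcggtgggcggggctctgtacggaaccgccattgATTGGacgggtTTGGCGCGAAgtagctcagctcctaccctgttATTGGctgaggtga
Mcm5: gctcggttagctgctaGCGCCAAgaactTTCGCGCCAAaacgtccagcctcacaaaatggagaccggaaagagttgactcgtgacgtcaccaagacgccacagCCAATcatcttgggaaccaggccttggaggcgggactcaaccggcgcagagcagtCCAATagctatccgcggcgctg
Cdc20: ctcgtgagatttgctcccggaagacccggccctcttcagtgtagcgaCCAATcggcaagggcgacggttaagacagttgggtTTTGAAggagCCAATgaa
Cdk1: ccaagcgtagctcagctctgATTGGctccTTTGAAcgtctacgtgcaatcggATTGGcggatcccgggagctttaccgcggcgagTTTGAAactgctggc
Top2a: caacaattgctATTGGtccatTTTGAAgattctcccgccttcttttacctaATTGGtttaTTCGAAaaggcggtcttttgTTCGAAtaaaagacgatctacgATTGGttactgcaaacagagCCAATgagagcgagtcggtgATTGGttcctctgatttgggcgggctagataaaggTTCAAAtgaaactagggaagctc
In Mcm6 each long run of capitals holds 2 E2F cores that overlap, 1 on each strand. In Cdc20 and Cdk1 a CHR begins at -18 and -15 from the start, with CCAAT letters close upstream.

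**Figure D1:**
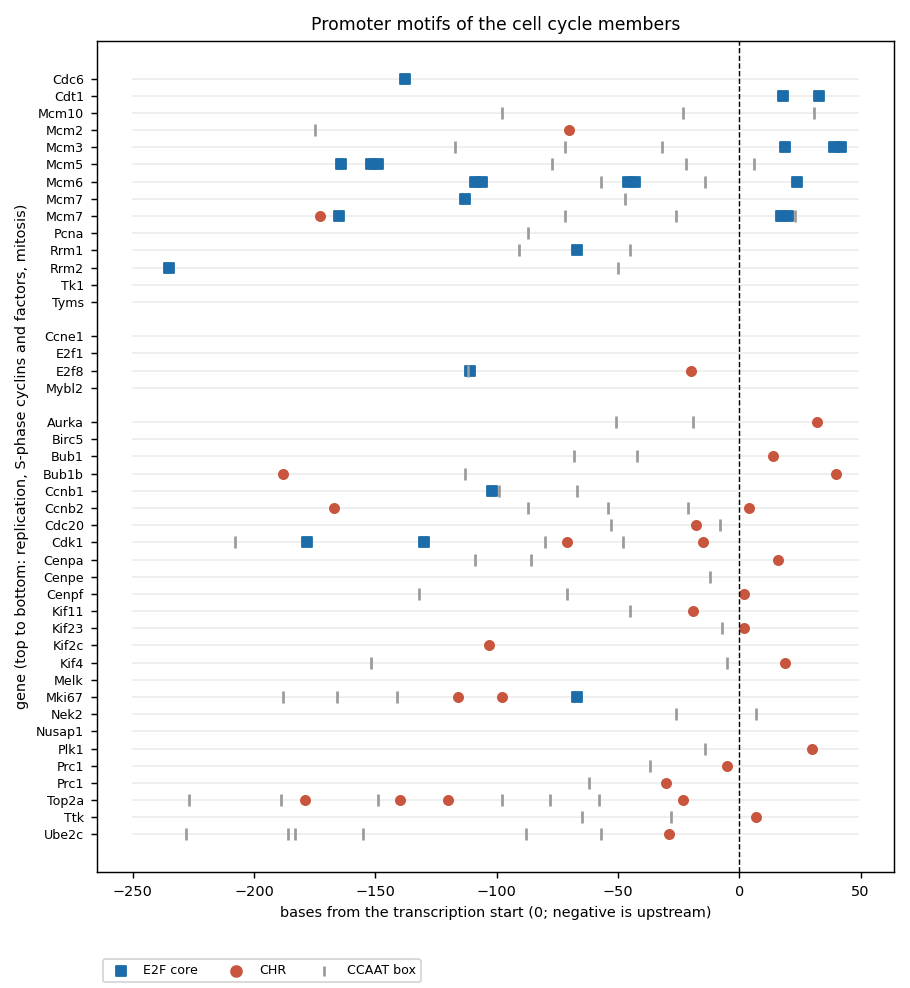
Positions of the 3 letter patterns in the promoter windows of the members, with bases from the transcription start on the horizontal axis and 1 line per window (Mcm7 and Prc1 have 2 each). Blue squares (E2F core) lie mainly in the replication genes at the top and red circles (CHR) mainly in the mitosis genes at the bottom, 16 of which have a CHR within 50 bases of the start.

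The comparison of genotypes asked whether CD109 deficiency went with a different level of the cell cycle programme. Over all 16443 genes limma called 0 at a Benjamini-Hochberg adjusted p under 0.05 (0% of genes). Without adjustment, 7.41% of genes stood under 0.05 (1219 genes; 822 higher and 397, or 2.41%, lower in CD109-/- tumours). Of the 49 members, 0 were called and 0 had an unadjusted p under 0.05, and the lowest adjusted p was 0.71, that of Mcm7. On its brightest tested probe no tested member differed by more than 1.51-fold, whereas 6.51% of all genes differed by at least 1 on the log2 scale. Further tested probes went beyond that fold in Ccnb1 (-0.83 on the log2 scale), Mcm7 (-0.76) and Ttk (0.64). The limma intervals (95%) lay within 1 on the log2 scale either way for 24 of 49 members, close to the 49.8% of all genes, so that for the other 25 a change of that size is not excluded. Lower values in CD109-/- tumours were more frequent than higher ones, 36 against 13, where 49.7% of all genes were lower and 50.3% higher. That lean changed with the array left out. Without CD109+/+ replicate 1, or without CD109-/- replicate 2, 32 of the 49 members were higher. Without CD109+/+ replicate 2 or CD109-/- replicate 1 only 8 and 5 were. In 43 members replicate 1 was above replicate 2 in both genotypes. These counts largely restate that order and do not place the lean on 1 array. The smallest two-sided p that an exact permutation test allows for 2 against 2 arrays is 0.333.

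The genotypes did not overlap in 12 members (24.5%), fewer than the 38.6% over all genes. In 8 of them both CD109-/- arrays were below both CD109+/+ arrays (18.3% of all genes), namely Mcm7, Rrm1, Ccne1, Ccnb1, Bub1b, Cdc20, Kif4 and Prc1. In 4 both CD109-/- arrays were above (20.3% of all genes), namely Mcm4, Mcm10, Pcna and E2f1. The remaining 37 tested members overlapped.

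**Figure D2:**
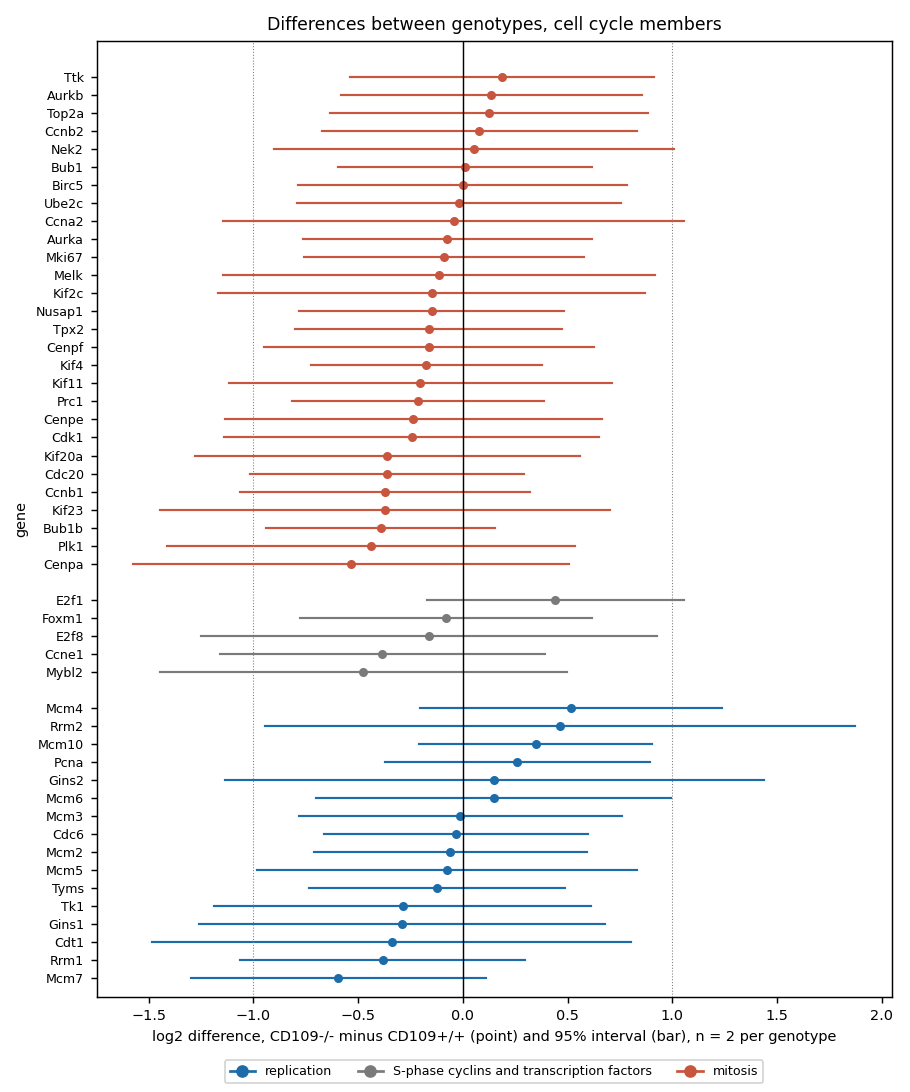
Log2 differences, CD109-/- minus CD109+/+, of the 49 members tested (points, n = 2 per genotype) with limma's 95% intervals (bars), grouped by role; dotted lines stand at -1 and 1. Every interval crosses 0, and the points run from -0.59 (Mcm7) to 0.52 (Mcm4).

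Among replication genes, values lay on both sides of 0, with 6 of 16 higher in CD109-/- tumours and a median difference of -0.05. The 6 subunits of the MCM helicase lay on both sides of 0. Mcm7 stood at 3.25 and 2.85 in CD109+/+ tumours, against 2.62 and 2.30 with CD109 deleted, a difference of -0.59 ± 0.27 (SE, n = 2 per genotype; limma adjusted p = 0.71). Its second probe gave -0.76, and both CD109-/- arrays were the lower ones. Mcm4, in the same hexamer, went the other way, from 1.90 and 1.51 to 2.40 and 2.03, a difference of 0.52 ± 0.27 (limma adjusted p = 0.741) without overlap. The other subunits straddled 0. Mcm2 stood at 0.47 and 0.08 in CD109+/+ tumours, against 0.27 and 0.16 with CD109 deleted, a difference of -0.06 ± 0.25 whose interval ran from -0.71 to 0.59. Mcm3, Mcm5 and Mcm6 differed by -0.01, -0.08 and 0.15, each with overlapping genotypes.

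The helicase activator Mcm10 stood at -1.29 and -1.28 in CD109+/+ tumours, against -1.01 and -0.87 with CD109 deleted, a difference of 0.35 ± 0.21 (limma adjusted p = 0.763). The CD109+/+ arrays were nearly equal here and both were the lower ones. The loading factors Cdc6 and Cdt1 differed by -0.03 and -0.34, and the GINS subunit genes Gins1 and Gins2 by -0.29 and 0.15. The further probe of Cdc6 gave 0.30 and that of Gins1 0.19, so the direction of these genes depended on the probe. Probes on both sides of 0 were found in 6 of the 20 members with further tested probes, the others being Mcm3, Tyms, Top2a and Birc5. Pcna, the sliding clamp, stood at 2.98 and 2.83 against 3.33 and 2.996, a difference of 0.26 ± 0.24, with its lowest CD109-/- value only just above the highest CD109+/+ value.

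The nucleotide supply genes also lay on both sides of 0. Rrm1, the large subunit of ribonucleotide reductase, stood at 1.17 and 0.80 in CD109+/+ tumours, against 0.74 and 0.45 with CD109 deleted, a difference of -0.38 ± 0.26. Rrm2, the S-phase subunit, stood at 1.47 and 0.64 against 2.13 and 0.91, a difference of 0.47 ± 0.53 with the widest interval of all members, -0.94 to 1.87. In each genotype replicate 1 was high and replicate 2 low, and without the male sample, CD109-/- replicate 1, the difference was -0.15. Tyms, thymidylate synthase, differed by -0.12 and Tk1, thymidine kinase, by -0.29, both overlapping.

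The S-phase cyclins and transcription factors had 5 testable members with a median difference of -0.16, and 1 of these lay above 0. E2f1, which switches on replication genes, stood at -1.19 and -1.51 in CD109+/+ tumours, against -0.95 and -0.87 with CD109 deleted, a difference of 0.44 ± 0.23 (limma adjusted p = 0.74), and was the higher one. Ccne1, cyclin E1, stood at 0.47 and 0.49 against 0.41 and -0.22, a difference of -0.38 ± 0.29 set mainly by CD109-/- replicate 2. Mybl2, the MuvB partner of mitotic genes, stood at 0.59 and -0.32 against -0.26 and -0.42, a difference of -0.48 ± 0.37, in which CD109+/+ replicate 1 stood apart from the other arrays. Foxm1, the next factor in that cascade, stood at -0.35 and -0.65 against -0.38 and -0.78 and differed by -0.08 ± 0.26. E2f8, a repressor of E2F targets, differed by -0.16. Ccne2, cyclin E2, was not tested, since its single probe was well above background on 1 of 4 arrays, CD109+/+ replicate 1. Its measured signal was -5.39 and -6.03 in the CD109+/+ samples, against -7.47 and -6.72 with CD109 deleted. No fold is given for it.

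The mitosis genes leaned lower, with 22 of 28 below 0 and a median difference of -0.16. On the brightest tested probes their differences were small, from -0.54 to 0.19. Mki67, the standard proliferation marker, stood at 2.22 and 1.94 in CD109+/+ tumours, against 2.17 and 1.82 with CD109 deleted. The difference was -0.09 ± 0.25 with an interval of -0.76 to 0.58, and the arrays of the genotypes interleaved. Top2a, the topoisomerase that untangles sister chromatids, stood at 0.32 and 0.14 against 0.64 and 0.065, a difference of 0.13 ± 0.29 (second probe -0.04) that was -0.16 without the male sample. Neither marker separated the genotypes.

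Cyclin B and its kinase came next. Ccnb1, cyclin B1, stood at 0.46 and 0.08 in CD109+/+ tumours, against 0.05 and -0.26 with CD109 deleted, a difference of -0.37 ± 0.26 (limma adjusted p = 0.797). Its 2 further probes gave -0.83 and -0.50, and the CD109-/- arrays were the lower ones by a narrow margin. Cdk1 stood at -1.12 and -1.34 against -1.09 and -1.86, a difference of -0.24 ± 0.34. On this probe it came from CD109-/- replicate 2 alone. The second Cdk1 probe gave -0.31, with both CD109-/- arrays below both CD109+/+ arrays. Ccnb2 and Ccna2, cyclins B2 and A2, differed by 0.08 and -0.04. Cdc20, which activates the anaphase-promoting complex, stood at 2.27 and 1.87 against 1.76 and 1.65, a difference of -0.36 ± 0.25 (second probe -0.35) without overlap. Ube2c, the ubiquitin-conjugating enzyme of the same complex, differed by -0.02.

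Among mitotic kinases and checkpoint genes, Bub1b, which encodes the checkpoint kinase BUBR1, had tight replicates. It stood at -1.68 and -1.71 in CD109+/+ tumours, against -2.13 and -2.05 with CD109 deleted, a difference of -0.39 ± 0.21 (limma adjusted p = 0.74), and its partner gene Bub1 differed by 0.01. Plk1, Polo-like kinase, stood at 1.15 and 0.65 against 0.85 and 0.08, a difference of -0.44 ± 0.37 with overlap. Aurkb, the kinase of the chromosomal passenger complex, stood at -2.56 and -2.38 against -2.08 and -2.58, a difference of 0.14 ± 0.27 that was -0.018 with normexp background correction. Birc5, which encodes survivin of the same complex, differed by -0.0017 and Aurka by -0.07, all with overlapping genotypes. The kinases Ttk, Nek2 and Melk differed by 0.19, 0.05 and -0.11.

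Kinesins and chromosome or spindle proteins filled the rest of the list. Cenpa, the centromeric histone gene, stood at 0.09 and -0.52 in CD109+/+ tumours, against -0.35 and -1.16 with CD109 deleted, the largest mitotic difference at -0.54 ± 0.39 (limma adjusted p = 0.805). Its interval ran from -1.58 to 0.51, and the lower CD109+/+ array lay below the higher CD109-/- array. Without CD109-/- replicate 2 the difference was -0.13. Prc1, which bundles the central spindle, stood at 1.74 and 1.64 against 1.62 and 1.34, a difference of -0.21 ± 0.23 (second probe -0.09). Kif4, the chromokinesin that works with Prc1, stood at -3.15 and -3.26 against -3.39 and -3.36, a difference of -0.17 ± 0.21. Both were without overlap, at small size. Kif20a stood at -0.05 and -0.30 against -0.13 and -0.94, a difference of -0.36 ± 0.35. Kif23, also a kinesin gene, stood at 0.16 and -0.04 against 0.20 and -0.83, a difference of -0.37 ± 0.40. On these probes of Kif20a and Kif23, CD109-/- replicate 2 was the low array and the other 3 lay close together. The second Kif23 probe stood at -0.48 and -0.90 against -0.79 and -1.56, a difference of -0.49, with the other 3 further apart. The remaining Kif11, Kif2c, Tpx2, Nusap1, Cenpe and Cenpf differed by -0.24 to -0.15, all overlapping.

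Within each genotype nearly all members put the arrays in the same order. CD109+/+ replicate 1 was above replicate 2 in 46 of 49 members (54.2% of all genes), with a median gap of 0.37 against 0.04 over all genes. CD109-/- replicate 1 was above replicate 2 in 45 of 49 (47.5% of all genes), with a median gap of 0.42 against -0.03. Both held in 43 members, or 87.8%, against 31.9% of all genes. Replication genes (15 of 16 in each genotype) and mitosis genes (27 of 28 and 26 of 28) behaved alike. The exceptions were Mcm10, Ccne1 and Aurkb in CD109+/+ tumours and Mcm10, E2f1, Bub1b and Kif4 in CD109-/- tumours.

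The size of this spread exceeded the genotype difference in most members. In 42 of 49 the wider of the within-genotype gaps was larger than the difference of the means (73.9% of all genes). The median difference, taken without its sign, was 0.17, against 0.25 over all genes. Over all genes the median gap without its sign was 0.27 in CD109+/+ and 0.34 in CD109-/- tumours. The highest array was CD109+/+ replicate 1 in 29 members and CD109-/- replicate 1 in 17, and the lowest was CD109-/- replicate 2 in 35 and CD109+/+ replicate 2 in 11. Summed over the members, linear signal relative to the 75th percentile was 99.5 and 78.3 in CD109+/+ tumours, against 100.2 and 71.1 with CD109 deleted. The widest gap in CD109+/+ tumours was that of Mybl2 at 0.90, and in CD109-/- tumours that of Rrm2 at 1.22. Rrm2 and Gins2 were wide in both, with 0.83 and 0.80 in CD109+/+ tumours, against 1.22 and 1.06 with CD109 deleted. The CD109-/- replicates also differed in sex, and its part in their gap was not tested; both CD109+/+ samples were female.

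The gap depends on the scaling in CD109+/+ tumours. In the authors' processed values the median gene was 0.24 lower on CD109+/+ replicate 1 than on replicate 2. There 34 of 49 members were higher on replicate 1 (4418 of all 16443 genes), with a median gap of 0.09. With scaling to the median, the median gene was 0.13 higher on replicate 1. There 48 of 49 members were higher on it (10378 of 16443 genes), with a gap of 0.46. In CD109-/- tumours 43 to 49 members were higher on replicate 1 under the 5 scalings and background corrections. Of all 16443 genes 6808 to 9758 were. The members' median gap in CD109+/+ tumours exceeded that of all genes under each of them.

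**Figure D3:**
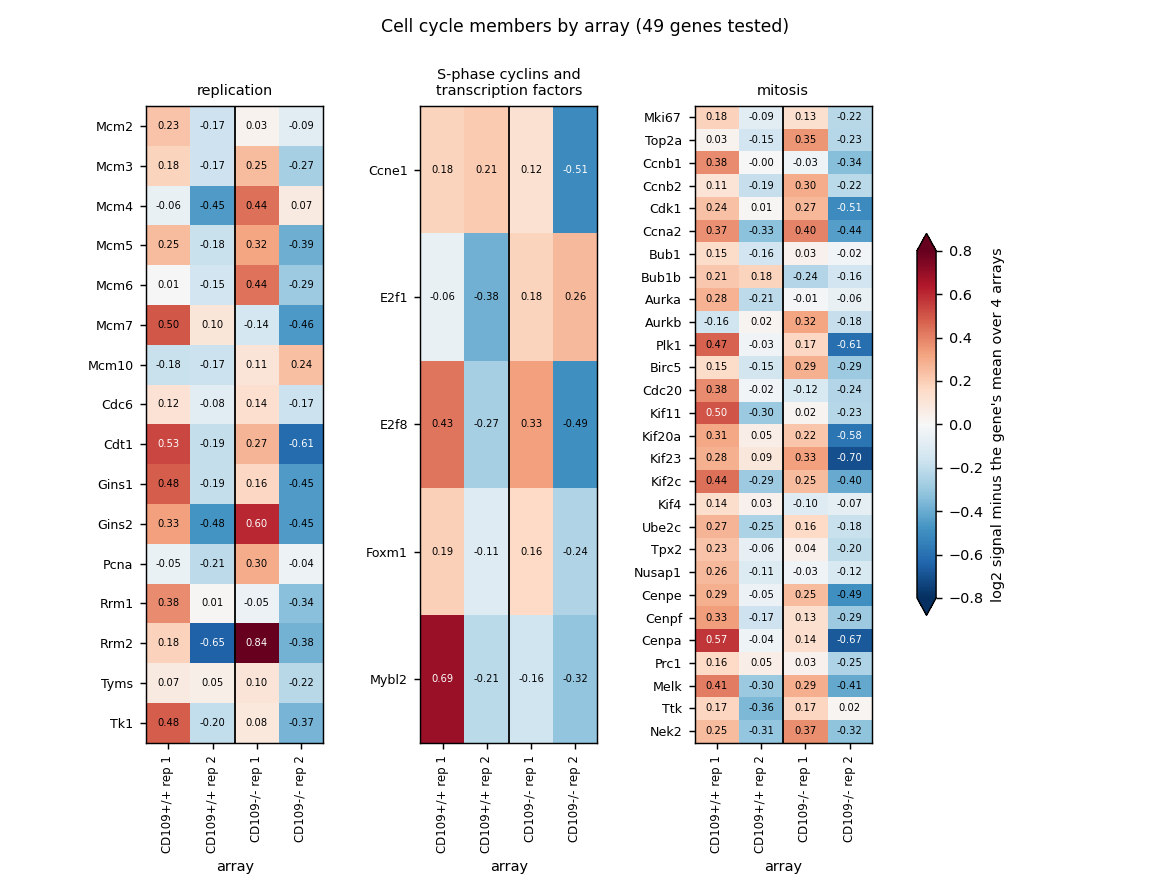
Log2 signal of each tested member on each of the 4 arrays, minus that gene's mean over the arrays (colour and printed value), by role, with a line between genotypes. The replicate 1 columns are mostly red and the replicate 2 columns mostly blue in both genotypes, and CD109-/- replicate 2 is the lowest array in 35 of 49 members.

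**Figure D4:**
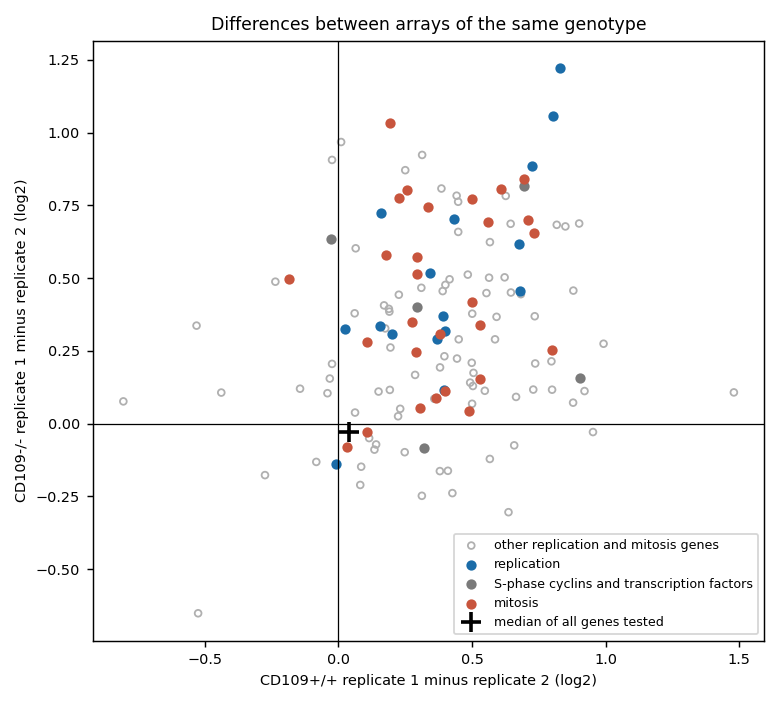
Replicate 1 minus replicate 2 on the log2 scale in CD109+/+ (horizontal) and CD109-/- tumours (vertical), 1 point per gene; open circles are other replication and mitosis genes and the cross is the median of all genes tested. Of the members, 43 of 49 lie to the upper right of both zero lines, while the cross lies near 0 at 0.04 and -0.03.

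Further genes of the pathway were taken from lists of other replication and mitosis genes. The 35 other replication genes had a median of -0.11. Of them 2 had an unadjusted limma p under 0.05, both lower (7.41% of all genes, 2.41% lower). These were Rpa2, of the single-strand binding complex (-0.58 ± 0.21), and Rfc3, of the clamp loader (-0.60 ± 0.22), and Wdhd1, which ties helicase to polymerase, followed at -0.51 ± 0.25. Of 53 other mitosis genes 1 had an unadjusted p under 0.05, the phosphatase gene Cdc25b, which activates Cdk1 and was the higher at 0.59 ± 0.22 (further probe 0.94), and the median was -0.08. The spindle protein gene Troap stood at -1.25 ± 0.53, and came to -0.51 without CD109+/+ replicate 1 and -0.46 with normexp. Troap was well above background on 3 of 4 arrays, 2 CD109+/+ and 1 CD109-/-. It entered the test through the CD109+/+ arrays only. The kinesin gene Kif22 stood at -0.74 ± 0.32. After limma's Benjamini-Hochberg adjustment 0 genes of either list were called. Replicate 1 was above replicate 2 in 29 of 35 and 47 of 53 in CD109+/+ tumours (54.2% of all genes). In CD109-/- tumours it was above in 26 of 35 and 45 of 53 (47.5% of all genes). In their promoters an E2F core stood in 17 of 26 other replication genes (65.4%), against 17% of tested genes with a window. A CHR stood in 31 of 44 other mitosis genes (70.5%), against 17.2%.

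Of 26 cell cycle inhibitors and G1 regulators, 0 had an unadjusted limma p under 0.05 (7.41% of all genes). In CD109-/- tumours 14 were higher (50.3% of all genes), and the median was 0.05. Cdkn2a, which encodes the inhibitors INK4A and ARF, stood at 4.66 and 3.88 in CD109+/+ tumours, against 3.55 and 3.04 with CD109 deleted, a difference of -0.97 ± 0.37 (limma adjusted p = 0.671; further probe -0.79). Its genotypes did not overlap, and its difference was the largest of this list in size. E2f7, a repressor of E2F targets, differed by 0.73 ± 0.29, but its further probe gave -0.33. The inhibitor genes Cdkn2d, Cdkn2c and Cdkn1a, the last a p53 target, differed by 0.41 ± 0.21, 0.45 ± 0.29 and 0.62 ± 0.42. Ccnd1, cyclin D1, differed by -0.22 ± 0.23.

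Markers of other cell types were read on the same arrays. Only tested markers are counted, and over all genes 50.3% were higher in CD109-/- tumours. Higher values there were found for 11 of 11 macrophage markers (median 0.61), 7 of 8 T and NK cell markers (1.38) and 9 of 9 fibroblast markers (0.79). They were found for 7 of 7 endothelial markers (0.24) and 4 of 13 epithelial markers (-0.18). Of B and plasma cell markers 4 of 8 were higher (0.14), and of erythroid markers 3 of 4 (0.50). Of these tested markers 0 were called after adjustment. An unadjusted limma p under 0.05 was found for 5 macrophage, 5 T and NK cell and 4 fibroblast markers. It was also found for 2 B and plasma cell markers and 1 endothelial marker, and for 0 epithelial or erythroid markers. All of these hits were higher in CD109-/- tumours. Over all genes 7.41% had such a p in either direction (1219 genes, of which 822 were higher). Among the hits, Cd163 (macrophage) and Tcf21 (fibroblast) entered the test through the CD109-/- arrays only. Cd163 was well above background on 0 CD109+/+ and 2 CD109-/- arrays, and Tcf21 on 1 and 2. Summed macrophage signal was 28.7 to 32.9 in CD109+/+ and 45.2 to 49.9 in CD109-/- tumours, and summed T and NK signal 3.21 to 3.54 and 3.87 to 4.95. Between replicates, replicate 1 was above replicate 2 in 10 of 13 epithelial markers in each genotype. In CD109+/+ and CD109-/- tumours respectively, it was above in 4 and 7 of 11 macrophage and 4 and 0 of 7 endothelial markers. Over all genes these shares were 54.2% and 47.5%. The erythroid factor gene Klf1 and the NK receptor gene Ncr1 were well above background on 0 arrays. The part of these cell types in the members' values was not tested.

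**Figure D5:**
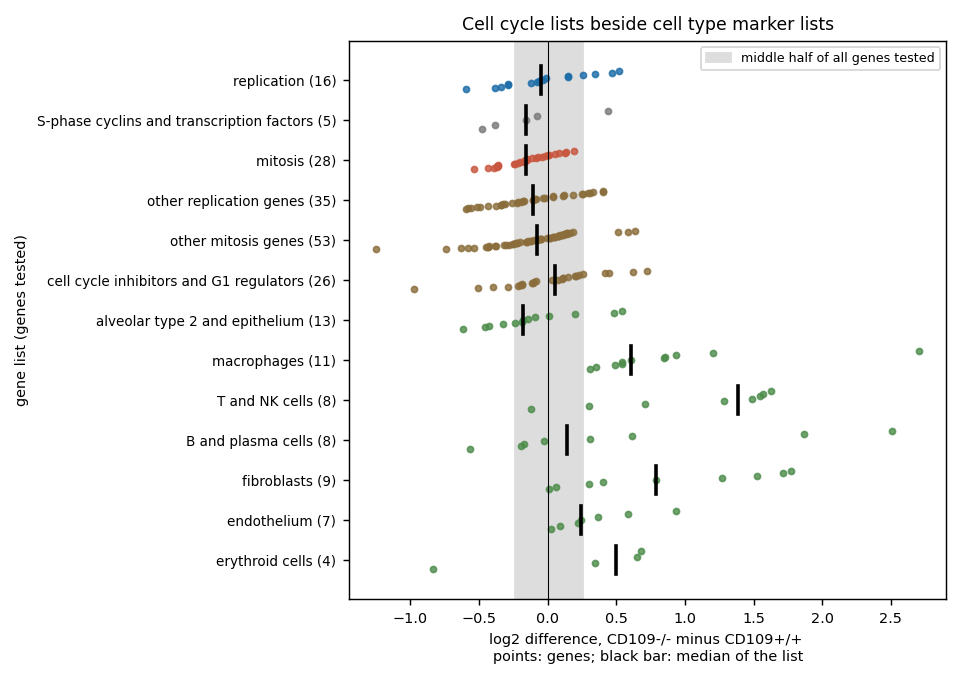
Log2 differences, CD109-/- minus CD109+/+, of each tested gene (points) by list, with the list's median as a black bar and the range from the lower to the upper quartile of all genes tested in grey (-0.24 to 0.26). The 3 member groups and the other cell cycle lists have medians within the grey band, whereas the medians of the fibroblast, erythroid, macrophage and T and NK cell lists lie to its right.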

How the data were processed

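Cy3-labelled RNA (100 ng input) from lung tumours was read on single-colour Agilent arrays, as the labels' protocols state. Per the file headers, Agilent Feature Extraction 12.1.0.3 produced the deposited scanner files, whose intensity values were background-subtracted and detrended within each array but not scaled between arrays. The authors' processed table of intensity values equals each array's signal times 1 constant (1.19, 1.21, 1.04 and 1.08 in the order of CD109+/+ and CD109-/- replicates; column medians 58.8, 76.1, 59.5 and 69.2), and served as an alternative; the rule behind the constants, not stated in the sources used here, stays unknown.

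Spots of 1 probe were averaged without outlier-marked spots, and log2 values were centred on each array's 75th percentile. A probe entered the test if 1 genotype or both had it well above background on each array, and a gene was represented by its brightest tested probe, named by accession through RefSeq (GRCm38.p6). Genotypes were compared with limma 3.58.1 in R 4.3.3 (lmFit, eBayes; 2 residual and 2.54 prior degrees of freedom), Benjamini-Hochberg over 16443 genes, checked on simulated data. The number of arrays limits the precision. All arrays lay on 1 slide. A bound uses each array's lowest signal among probes well above background. Members given in full were the 6, 3 and 10 with the largest absolute moderated t in replication, S-phase and mitosis roles, plus a fixed set of well known genes. Other cell cycle genes given were the 3 with the largest absolute moderated t of each list and 6 fixed genes. The members and lists were chosen with earlier results of these data known.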

Additional observations from a re-analysis of the deposited data

How the results depend on the processing

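Each of 24 tested members and 14 other cell cycle genes given by name was recomputed under 14 alternatives (13 for Troap, which is not well above background on all arrays), and 0 were called under any of them (lowest limma adjusted p = 0.31). The alternatives for the 14 others were added after the data were seen. Across all genes 0 were called under each alternative. Genes with an unadjusted p under 0.05 numbered 1898 with the replicate number as a block and 553 to 1929 when 1 array was left out, the lowest without CD109+/+ replicate 1 and the highest without CD109-/- replicate 2. The replicate numbers are not stated to mark shared mice. Deviations of same-numbered arrays correlated at 0.36 across all genes, and the block changed no call. Members with an unadjusted p under 0.05 numbered 1 with the block (Mcm7), 1 with normexp (Mcm7), 1 with no filter on dim probes (Ccne2) and 1 with sex as a covariate or without CD109-/- replicate 1 (Kif23). The only male sample is CD109-/- replicate 1, so the fit with sex as a covariate gives the same differences as leaving that array out. It is not a separate check and cannot set sex apart from that array. In it 5 members were higher in CD109-/- tumours and the median of the S-phase cyclins and factors was -0.55. Aurkb, Rrm2 and Top2a turned to -0.11, -0.15 and -0.16. Aurkb was -0.018 with normexp. The cause of these shifts was not tested.

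With 1 array left out, the lone array was assumed to vary like the others, and 5 to 32 members were higher in CD109-/- tumours. The medians ranged from -0.28 to 0.18 for replication, -0.55 to 0.12 for S-phase cyclins and factors, -0.35 to 0.07 for mitosis and -0.33 to 0.12 for all members. Signs turned for Aurkb (-0.11 to 0.39), Cdk1 (-0.63 to 0.14), Foxm1 (-0.28 to 0.12), Kif20a (-0.76 to 0.042), Kif23 (-0.89 to 0.14), Mcm2 (-0.26 to 0.14), Mki67 (-0.26 to 0.086), Rrm2 (-0.15 to 1.08), Top2a (-0.16 to 0.41), Ccnd2 (-1.04 to 0.88) and Myc (-1.11 to 0.73). Sizes without a change of sign moved widely for Mybl2 (-0.93 to -0.024), Cenpa (-0.94 to -0.13), Plk1 (-0.83 to -0.053), Ccne1 (-0.70 to -0.068), Pcna (0.092 to 0.43), Prc1 (-0.35 to -0.073), Cdc20 (-0.56 to -0.16), Ccnb1 (-0.56 to -0.18), Rrm1 (-0.57 to -0.20), Cdkn1a (0.069 to 1.17), Cdkn2c (0.15 to 0.74) and Troap (-1.99 to -0.51). Normexp was run on median spot signals, since no mean spot signal was used here. Ccne2 was the only member limited by signal over background.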

Other observations

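Among cell cycle regulators that are no members, Ccnd2, Myc and Cdkn1a had wide spreads within a genotype. They are picked out here after their values were seen. Ccnd2, cyclin D2, stood at 2.94 and 4.72 in CD109+/+ tumours and at 4.71 and 2.79 in CD109-/- tumours, so that CD109+/+ replicate 2 and CD109-/- replicate 1 were the high arrays and each genotype held 1 high and 1 low array (difference -0.08 ± 0.89). Myc stood at -0.19 and -0.15 in CD109+/+ tumours and at 0.56 and -1.28 in CD109-/- tumours, where the replicates were the extremes of the 4 arrays (difference -0.19 ± 0.64). Cdkn1a was low on 1 array, CD109+/+ replicate 2, at 0.25, against 1.32 to 1.52 on the other arrays, and its further probe differed by 1.30 between genotypes.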
